A study of Homo sapiens with 8 samples.

Results

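The heterotrimeric G proteins and their effectors described here are 10 genes, taken by symbol from an RNA table of 25377 genes, and the 40 ATAC peaks named for them among 70312. They are the alpha subunit genes GNA13, GNAI2, GNAI3 and GNAQ, the beta and gamma subunit genes GNB4 and GNG10, the guanine nucleotide exchange factor genes ARHGEF1 and ARHGEF12, the receptor kinase gene GRK6 and the arrestin gene ARRB2. All 10 genes were in the RNA table, 9 had an adjusted p, and each had at least 1 peak. The cells were Raji, a Burkitt lymphoma B cell line, as wild type and after CRISPR/Cas9 removal of the super-enhancer that lies on chromosome 1 between RGS1 and RGS13 (the RGS-SE knockout). Knockout cells had received Cas9 and 2 guide plasmids by electroporation, and were selected with puromycin and taken as single clones. How many clones the libraries came from is not given, so genotype and clone cannot be told apart. The deposited fold changes carry no named direction. Positive values were taken as higher in the knockout because a peak inside the removed interval then has fitted counts of 622 in wild type and 0.186 in knockout cells. That peak is from ATAC-seq, and the RNA fold changes were given the same coding without a check of their own. With the other coding in either assay, every direction of that assay would turn. Each genotype had 2 libraries of poly(A) RNA and 2 of open chromatin (ATAC-seq, transposition of about 50000 cells). The labels call the replicates biological without saying how they were separated, so p-values measure the spread between these libraries.

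A heterotrimeric G protein couples a cell surface receptor to enzymes inside the cell. An active receptor makes the alpha subunit exchange GDP for GTP, and the alpha subunit and the beta-gamma pair then part and act on their own targets until the alpha subunit hydrolyses its GTP, a step that RGS proteins speed up. In B cells, Gi proteins carry chemokine signals to migration, while G13 acts through exchange factors such as ARHGEF1 to hold germinal centre B cells in place. GNA13 and its partners are recurrently mutated in lymphomas of germinal centre origin.

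Size factors give relative depth in the RNA libraries, and the wild-type pair differed 1.82-fold while the knockout pair differed 1.03-fold. At a mean of 100 or more normalised reads, genes had a median SE of 0.214 on the log2 scale and peaks one of 0.161. Of the B cell markers, MS4A1 had 425 TPM (a level per kb of exon, scaled to a common total) in wild type and 881 in knockout cells, CD79A 311 and 319, CD79B 399 and 231, CD22 184 and 194, and PAX5 185 and 174. Among these 5, MS4A1 was higher and CD79B lower by the test. Markers of T and NK cells summed to 0.491 and 1.12 TPM with 4 of 6 genes not in the table, and those of myeloid cells to 1.42 and 1.30 TPM with 1 of 5 not in the table. Markers of epithelial, fibroblast and erythroid cells summed to 1.69 and 3.62 TPM, nearly all from COL1A1, with 4 of 6 not in the table. COL1A1 was higher in the knockout (log2 fold change 1.10, DESeq2 Wald adjusted p 0.0180) according to the authors' deposited table. No tested marker of T, NK or myeloid cells passed. The part of other cells in the results was not tested.

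The upstream sequences of 4 of the genes are shown because their RNA had the largest fold changes of the 9 tested members, and because accessibility at the start site rose at GNB4 and GNG10 while at ARHGEF12 and ARRB2 it did not pass the test. They come from RefSeq (GRCh38.p14), 5′ to 3′ along the gene's strand, and stop where the gene's exons begin, and capitals mark the GC box, GGGCGG, on either strand. Positions are chr3:179451477-179451720 (minus strand) for GNB4, chr9:111661355-111661604 (plus) for GNG10, chr11:120336163-120336412 (plus) for ARHGEF12 and chr17:4710382-4710595 (plus) for ARRB2.
GNB4: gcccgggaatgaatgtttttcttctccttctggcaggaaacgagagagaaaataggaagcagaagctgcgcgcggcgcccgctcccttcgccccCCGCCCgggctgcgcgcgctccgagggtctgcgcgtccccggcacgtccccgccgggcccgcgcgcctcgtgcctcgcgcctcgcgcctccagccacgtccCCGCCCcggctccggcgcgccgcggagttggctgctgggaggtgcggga
GNG10: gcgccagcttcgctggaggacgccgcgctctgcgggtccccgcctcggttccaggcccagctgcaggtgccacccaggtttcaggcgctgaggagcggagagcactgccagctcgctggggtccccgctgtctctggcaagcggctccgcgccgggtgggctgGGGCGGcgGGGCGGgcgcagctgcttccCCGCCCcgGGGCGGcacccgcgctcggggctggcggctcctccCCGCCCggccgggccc
ARHGEF12: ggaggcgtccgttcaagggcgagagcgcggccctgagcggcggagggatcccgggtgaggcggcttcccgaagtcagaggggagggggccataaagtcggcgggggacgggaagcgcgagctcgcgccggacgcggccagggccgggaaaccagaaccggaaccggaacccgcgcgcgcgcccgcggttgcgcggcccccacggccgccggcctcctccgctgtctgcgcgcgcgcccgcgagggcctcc
ARRB2: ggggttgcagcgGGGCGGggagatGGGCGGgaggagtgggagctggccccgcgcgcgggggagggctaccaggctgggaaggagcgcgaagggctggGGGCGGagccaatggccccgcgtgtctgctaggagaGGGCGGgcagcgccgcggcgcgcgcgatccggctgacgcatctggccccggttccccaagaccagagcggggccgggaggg

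All 4 had more CpG than most promoters. Within 250 bases before the start, GNB4 had 37 CpG, GNG10 30, ARHGEF12 42 and ARRB2 31, against a median of 11 in 34943 RefSeq windows of that length. The GC box occurred 2 times at GNB4, 5 times at GNG10, 0 times at ARHGEF12 and 4 times at ARRB2, and at least once in 42.5% of all windows. G and C made up 73.6% of these bases at GNB4, against 79.2% at GNG10, 77.6% at ARHGEF12 and 77.2% at ARRB2. RefSeq windows were found for 9 of the 10 genes, and GNAQ was not among them.

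The RNA comparison asked which subunits and effectors changed with the knockout. GNB4, a beta subunit gene, had 5 reads in wild type and 983 in the knockout. GNG10, a gamma subunit gene, rose 2.12-fold and ARHGEF12 rose 2.68-fold. ARHGEF1, GRK6 and ARRB2 fell to 54.9%, 60.9% and 40.9% of wild type. The alpha subunit genes GNA13, GNAI2 and GNAI3 did not pass the test, and GNAQ was at the limit of detection. In all, 6 of 9 tested members, or 66.7%, passed the DESeq2 Wald test according to the authors' deposited table, against 19.2% of all 17013 tested genes and 26.2% of the 10675 with a mean of at least 100. Of these 3 were higher and 3 lower, where 9.89% and 9.28% of all genes were. The members were chosen with earlier results of these data known, so their share over the background is a description and not a test. The calls of GNG10, ARHGEF1, GRK6 and ARRB2 ended in a test against a 1.5-fold change, with adjusted p of 0.576, 0.508, 1.000 and 0.0703. They also ended, at 0.451, 0.0821, 0.273 and 0.0787, when the Wald statistics were divided by their spread over all features (scaled statistics), while GNB4 and ARHGEF12 passed both. Intervals are 95%.

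**Figure D1:**
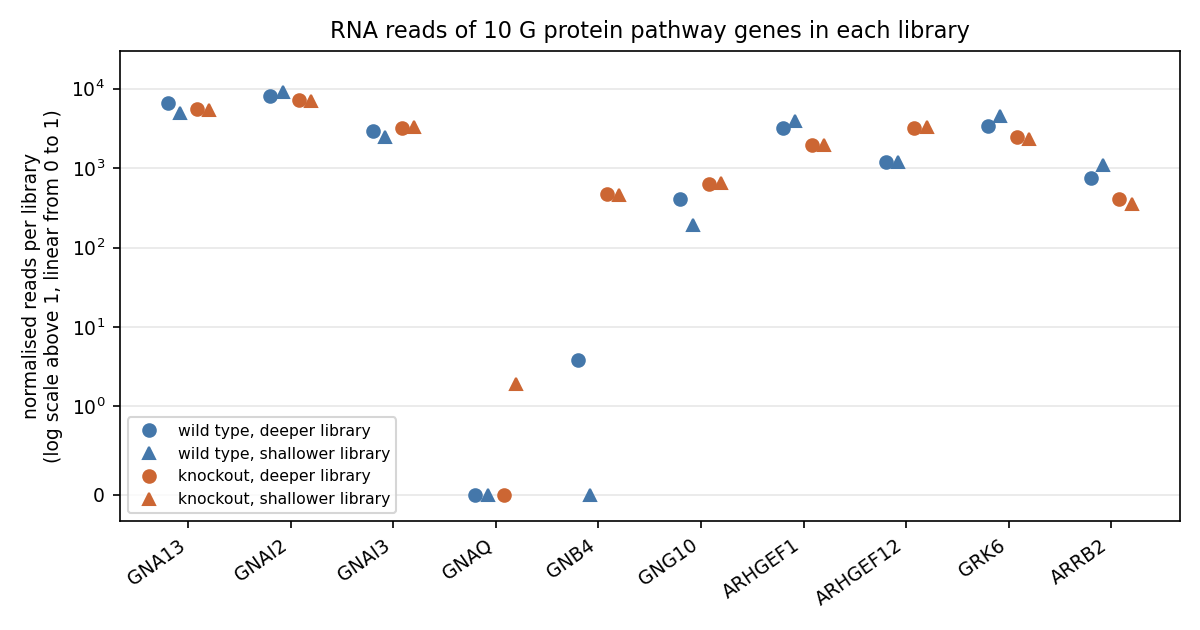
Normalised RNA reads of each gene (y axis, log scale above 1) in the 2 wild-type (blue) and 2 knockout (orange) libraries, circles for the deeper and triangles for the shallower library of each genotype. GNB4 has 3.84 and 0 in wild type and 476 and 462 in the knockout, and the wild-type pair of GNG10 lies further apart than its knockout pair.

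Alpha subunits decide which effector a receptor reaches. GNA13, on chromosome 17 at 65009289 to 65056740 and encoding the subunit that activates ARHGEF1 and ARHGEF12, had 6510 and 4946 normalised reads in the deeper and shallower wild-type libraries, against 5508 and 5369 in those of the knockout. Reads per library were recovered from the deposited means, and positions are on GRCh38 (GENCODE release 44). The knockout values lay between the wild-type values. Its log2 fold change was -0.08 (95% interval -0.42 to 0.27, DESeq2 Wald adjusted p 0.850) according to the authors' deposited table, and 0.06 after centring on the chromosome median. The interval spans 0.747 to 1.20 times the wild-type level.

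GNAI2, which encodes an inhibitory alpha subunit, lies on chromosome 3 at 50226292 to 50259362. It had 8021 and 8951 normalised reads in wild type and 7265 and 7046 in the knockout. Both knockout libraries were below both wild-type libraries, yet the log2 fold change of -0.25 (interval -0.54 to 0.05, adjusted p 0.285 by the DESeq2 Wald test) according to the authors' deposited table did not pass. GNAI3, a close relative on chromosome 1 at 109548615 to 109600195, had 2896 and 2431 reads in wild type and 3244 and 3268 in the knockout on the same scale. Here both knockout libraries were above, and the log2 fold change was 0.29 (interval -0.05 to 0.63, adjusted p 0.261) according to the authors' deposited table.

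Because both genes were read in the same libraries, their ratio does not depend on size factors. The raw reads of GNAI3 per read of GNAI2 were 0.361 and 0.272 in wild type and 0.446 and 0.464 in the knockout, so the groups did not overlap. The same ratio for GNA13 was 0.812 and 0.553 in wild type and 0.758 and 0.762 in the knockout, with overlap. These ratios are given as a description, with no test.

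GNAQ, which encodes the subunit that activates phospholipase C beta, lies on chromosome 9 at 77716097 to 78031811. Its reads were 0 in both wild-type libraries, and 0 and 2 in those of the knockout. A count of 0 allows up to 3 reads, or 1.49 normalised reads over the wild-type pair, so no difference was detectable at this depth and no fold is given. In bulk RNA, fewer cells that express a gene and less RNA per cell cannot be told apart, which holds for each value here.

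Beta and gamma subunits form a tight pair that signals by itself to kinases, channels and exchange factors. GNB4, on chromosome 3 at 179396088 to 179451476, had 5 raw reads in the deeper and 0 in the shallower wild-type library, against 507 and 476 in the knockout libraries. After scaling, these were 3.84 and 0 in wild type and 476 and 462 in the knockout. The log2 fold change was 7.60 (SE 0.74, interval 6.15 to 9.06, DESeq2 Wald adjusted p 2.80e-22) according to the authors' deposited table. From the summed reads, 5 against 983, the knockout level was 190 times that of wild type, with an exact counting interval of 80.9 to 585 that covers counting error only. In the shallower wild-type library, which had 0 reads, a limit of 3 reads would put the knockout mean 112-fold higher. This leaves out the deeper wild-type library and any error of the knockout mean, while the Wald interval reaches down to 71.0-fold.

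The rise of GNB4 added little to the family's total. Per kb of exon, it made up 0.00753% of the summed level of the 5 beta subunit genes in wild type and 1.83% in the knockout. GNB1, the main beta subunit gene, had 393 and 319 TPM, and GNB2 fell from 54.8 to 30.8 TPM with a log2 fold change of -0.82 (adjusted p 8.64e-04) according to the authors' deposited table. The transcripts ENSG00000242539 and ENSG00000272699, which overlap GNB4 on the opposite strand, had fitted counts of 33.1 and 10.9 in the knockout, against 469 for GNB4. The kit marks strand, but whether the counting used it is not stated.

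GNG10, on chromosome 9 at 111661605 to 111670226, had 407 and 193 normalised reads in wild type and 634 and 643 in the knockout. Both knockout libraries were above, but the wild-type pair differed 2.11-fold. The log2 fold change was 1.08 (SE 0.33, DESeq2 Wald adjusted p 0.00944) according to the authors' deposited table. From the recovered reads it was 0.65 without the shallower and 1.73 without the deeper wild-type library. GNG10 shares its exons with the read-through gene DNAJC25-GNG10, which had raw reads of 69 and 0 in wild type and 68 and 21 in the knockout, so how reads were split between them makes the level of GNG10 uncertain. The upstream gene DNAJC25, a chaperone gene, had a log2 fold change of 0.46 (adjusted p 0.287) according to the authors' deposited table. GNG10 made up 34.4% of the summed TPM of the gamma subunit genes in wild type and 53.9% in the knockout.

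Exchange factors with an RGS-like domain receive the G13 signal. ARHGEF1, the main such factor of lymphocytes, lies on chromosome 19 at 41883173 to 41930150. It had 3200 and 3909 normalised reads in wild type and 1949 in each knockout library. The knockout values were below both wild-type values, with a log2 fold change of -0.87 (SE 0.18, interval -1.21 to -0.52, DESeq2 Wald adjusted p 2.02e-05) according to the authors' deposited table. The gene ERFL overlaps it on the opposite strand with a fitted count of 61.9 in wild type and 26.2 in the knockout.

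ARHGEF12, a relative that also binds G13, moved the other way. It lies on chromosome 11 at 120336413 to 120489937 and had 1200 and 1193 normalised reads in wild type and 3162 and 3245 in the knockout. The libraries of each genotype lay close together and the genotypes were far apart, with a log2 fold change of 1.42 (SE 0.17, interval 1.09 to 1.76, DESeq2 Wald adjusted p 8.33e-15) according to the authors' deposited table. The reads of ARHGEF12 per read of ARHGEF1 were 0.375 and 0.305 in wild type and 1.62 and 1.66 in the knockout. Per kb of exon ARHGEF1 stayed the higher of the pair, at 46.6 and 5.44 TPM in wild type and 25.4 and 14.4 TPM in the knockout. The exon lengths used were 8.62 kb for ARHGEF1 and 24.9 kb for ARHGEF12.

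Receptor kinases tag active receptors and arrestins then uncouple them from G proteins. GRK6, on chromosome 5 at 177403204 to 177442901, had 3362 and 4513 normalised reads in wild type and 2464 and 2325 in the knockout. Both knockout libraries were below, with a log2 fold change of -0.72 (SE 0.19, interval -1.08 to -0.35, DESeq2 Wald adjusted p 0.00148) according to the authors' deposited table. The transcripts F12 and PRR7-AS1, which overlap it on the opposite strand, had fitted counts of at most 21.7.

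ARRB2, which encodes beta-arrestin 2, lies on chromosome 17 at 4710596 to 4721499. It had 761 and 1102 normalised reads in wild type and 410 and 350 in the knockout. The groups did not overlap, and the log2 fold change was -1.29 (SE 0.26, interval -1.81 to -0.78, DESeq2 Wald adjusted p 1.76e-05) according to the authors' deposited table. ARRB2 also fell relative to GRK6, with 0.226 and 0.244 reads per read of GRK6 in wild type and 0.166 and 0.15 in the knockout.

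In GNA13, GNAI3, GNB4, GNG10 and ARHGEF12 the deeper wild-type library was the higher of its pair. In GNAI2, ARHGEF1, GRK6 and ARRB2 it was the lower. The part of this difference between the wild-type libraries in the fold changes was not tested beyond leaving each library out.

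Levels between genes are given as normalised reads per kb of exon. The length joins all annotated exons of a gene, from 1.20 kb at GNG10 to 24.9 kb at ARHGEF12. The order of genes depends on this length, and other lengths were not tried. In wild type GNAI2 was highest, at 1083 to 1209 over its libraries. GRK6 and GNA13 followed at 772 to 1036 and 769 to 1012 and did not differ beyond their spread. ARHGEF1 came next at 371 to 453, above GNAI3, GNG10 and ARRB2, whose ranges overlapped from each to the next. ARHGEF12 at 47.9 to 48.2 was below these and above GNB4 at 0 to 0.481, which overlapped GNAQ at 0. In the knockout the order was GNAI2, GNA13, GRK6, GNG10, GNAI3, ARHGEF1, ARHGEF12, ARRB2, GNB4 and GNAQ, and GRK6 and GNG10 were the one neighbouring pair whose ranges overlapped. ARHGEF12 thus stood at 127 to 130 above ARRB2 at 82.0 to 96.2 in the knockout, and GNB4 at 58.0 to 59.7.

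The ATAC comparison asked where chromatin at these genes became more or less accessible. Of 40 peaks 7 were higher and 2 lower (DESeq2 Wald test) according to the authors' deposited table. That is 22.5% changed, against 35.9% of all peaks, with 20.4% of all peaks higher and 15.5% lower. Over start-site windows of 9 genes lay 10 of the 40 peaks, of which 2 were higher and 0 lower (8 not past the threshold). Of the 9603 peaks over any RefSeq window, 32.5% passed. The 2 higher start-site peaks were at GNB4 and GNG10, genes whose RNA also rose. A further window of ARHGEF1 lay under a peak named for LOC390937, which is not counted here. With scaled statistics none of the 40 peaks passed, and against a 1.5-fold change GNB4's start-site peak alone did.

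**Figure D2:**
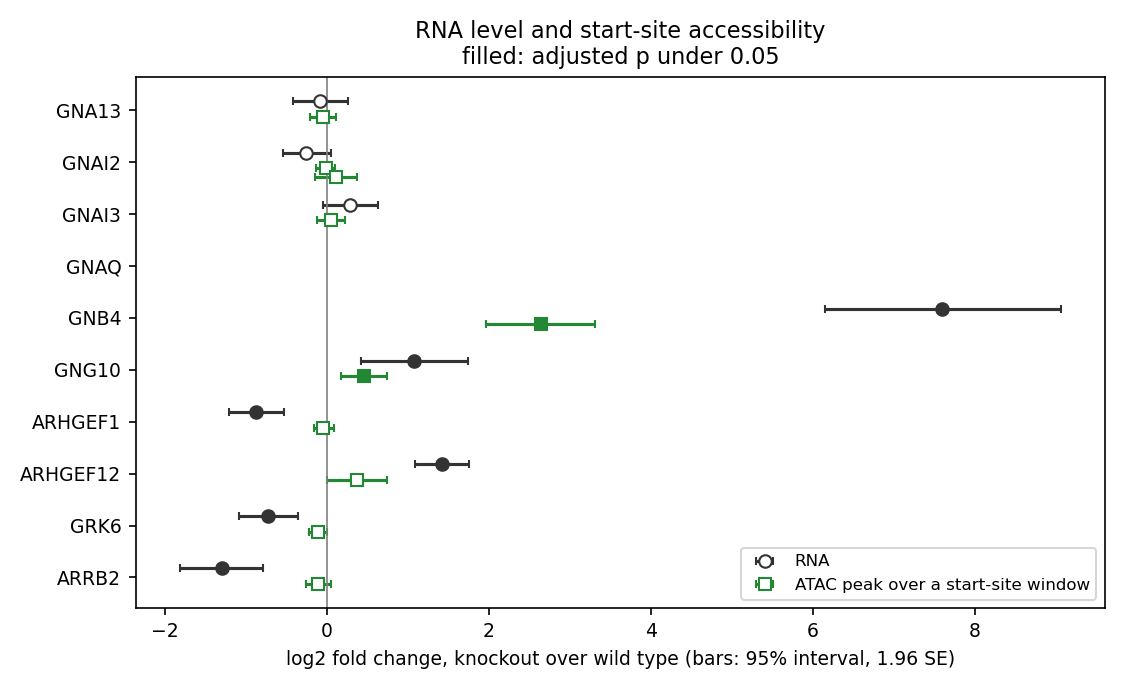
Log2 fold change of RNA (circles) and of each ATAC peak over a start-site window (squares) for each gene, knockout over wild type, with 95% intervals and filled symbols for an adjusted p under 0.05. GNB4 lies at 7.60 and 2.64 and GNG10 at 1.08 and 0.46, while the squares of ARHGEF1, GRK6 and ARRB2 lie between -0.11 and -0.04; GNAQ has neither value.

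At GNB4, the peak from 179450927 to 179451731 lies 141 bp from the start site. Fitted counts, from the deposited mean and fold change, went from 21.1 in wild type to 131 in the knockout, with a log2 fold change of 2.64 (SE 0.34, DESeq2 Wald adjusted p 4.62e-13) according to the authors' deposited table. With scaled statistics its adjusted p was 0.0531. The other 7 peaks named for GNB4 had log2 fold changes between -0.57 and 0.60, and none passed the threshold. The most accessible of them, an intronic peak 12367 bp from the start, had 544 fitted counts per kb in wild type and 626 in the knockout, against 26.3 and 164 at the start site. That intronic peak was thus open in both genotypes, while the start site was the least accessible of the 8 in wild type.

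**Figure D3:**
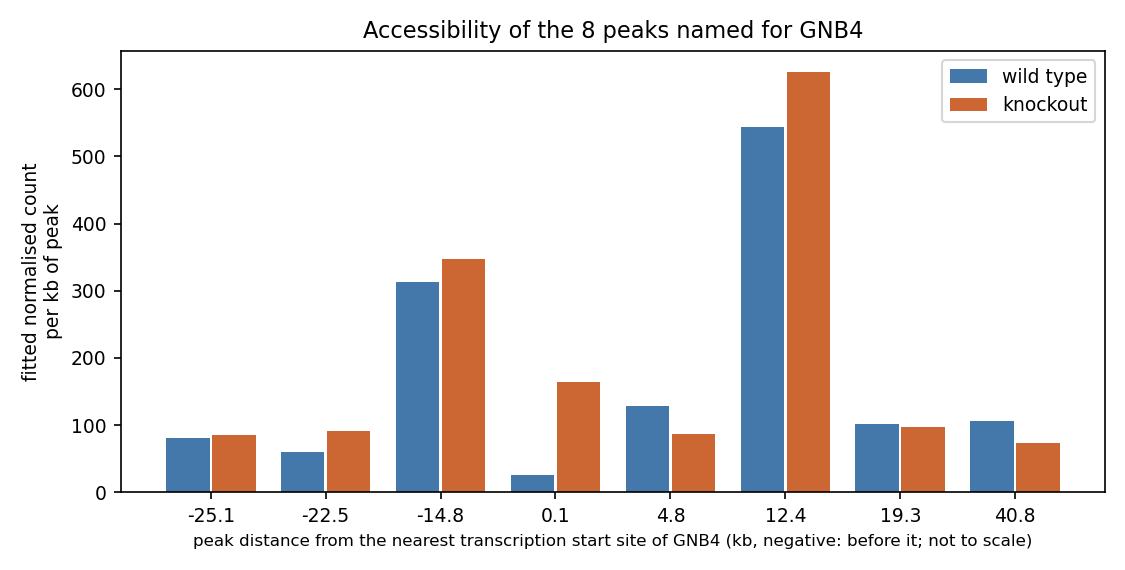
Fitted normalised ATAC count per kb of peak (y axis, bars from 0, no error drawn) for the 8 peaks named for GNB4, ordered by distance from the start site (x axis, kb), wild type in blue and knockout in orange. The peak at the start site goes from 26.3 to 164, while the other 7 did not pass the test.

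GNG10's start-site peak, from 111661094 to 111662907, had fitted counts of 272 in wild type and 375 in the knockout. Its log2 fold change was 0.46 (SE 0.14, DESeq2 Wald adjusted p 0.00582) according to the authors' deposited table. The second peak of GNG10, 30400 bp away, had 0.93 (adjusted p 0.0941) according to the authors' deposited table.

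ARHGEF12, whose RNA rose, had a start-site peak from 120335688 to 120337048 with fitted counts of 166 in wild type and 216 in the knockout. The log2 fold change of that peak was 0.38 (interval 0.01 to 0.75, adjusted p 0.104) according to the authors' deposited table, short of the DESeq2 Wald threshold. An intronic peak 8165 bp from the start, from 120344056 to 120345100, rose from 308 to 456 fitted counts, with a log2 fold change of 0.56 (SE of 0.13, adjusted p 1.23e-04) according to the authors' deposited table.

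The genes whose RNA fell had start sites that were highly accessible in both genotypes. ARHGEF1 had 1666 fitted counts in wild type and 1626 in the knockout at its start-site peak, a log2 fold change of -0.04 (interval -0.16 to 0.09, adjusted p 0.719) according to the authors' deposited table, and 0.09 after local centring. For ARRB2, 1292 and 1202 counts gave -0.10 (interval -0.26 to 0.05, adjusted p 0.311) according to the authors' deposited table. For GRK6, 3090 and 2863 counts gave -0.11 (SE 0.06, adjusted p 0.114) according to the authors' deposited table. For all 3 genes the interval of the start-site peak lay apart from that of the RNA. The same held for GNB4 and ARHGEF12, whose RNA rose, but not for GNG10. Fold changes of RNA and of accessibility are unlike measures.

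GRK6 had a peak that went against its RNA. The intronic peak 4937 bp from the start, from 177431229 to 177432016, rose from 647 to 945 fitted counts, with a log2 fold change of 0.55 (SE 0.09, DESeq2 Wald adjusted p 8.27e-08) according to the authors' deposited table. It had the second smallest adjusted p of the 40 peaks. ARHGEF1's intronic peak 11753 bp from the start had -0.52 (adjusted p 0.0673) according to the authors' deposited table, short of the threshold.

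Among the alpha subunit genes, GNA13 and GNAI2 had peaks that passed the test inside introns and none at their start sites, and neither peak of GNAI3 passed. The start-site peaks of GNA13 and GNAI3 had log2 fold changes of -0.05 and 0.05, and the 2 of GNAI2 had -0.01 and 0.12, all short of the threshold according to the authors' deposited table. Another promoter peak named for GNAI2, at 50226109 to 50228076, had 0.02 according to the authors' deposited table. Within GNA13, the peak from 65022792 to 65023666 rose by 0.69 (adjusted p 0.00205) and that from 65029603 to 65030115 fell by 0.69 (adjusted p 0.0101) (DESeq2 Wald test) according to the authors' deposited table. Within GNAI2, the peak from 50237751 to 50238267 rose by 0.38 (adjusted p 0.00445), and that from 50242823 to 50243234, also intronic, fell by 0.89 (adjusted p 3.09e-04) according to the authors' deposited table.

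GNAQ, with almost no reads, had 7 peaks and none over its start. The nearest, at -3513 bp, had 55.1 and 43.1 fitted counts. An intronic peak 115155 bp from the start went from 4.51 to 23.3 fitted counts, a log2 fold change of 2.37 (SE 0.75, DESeq2 Wald adjusted p 0.00652) according to the authors' deposited table, at a mean of 13.9, the lowest of the 40 peaks.

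**Figure D4:**
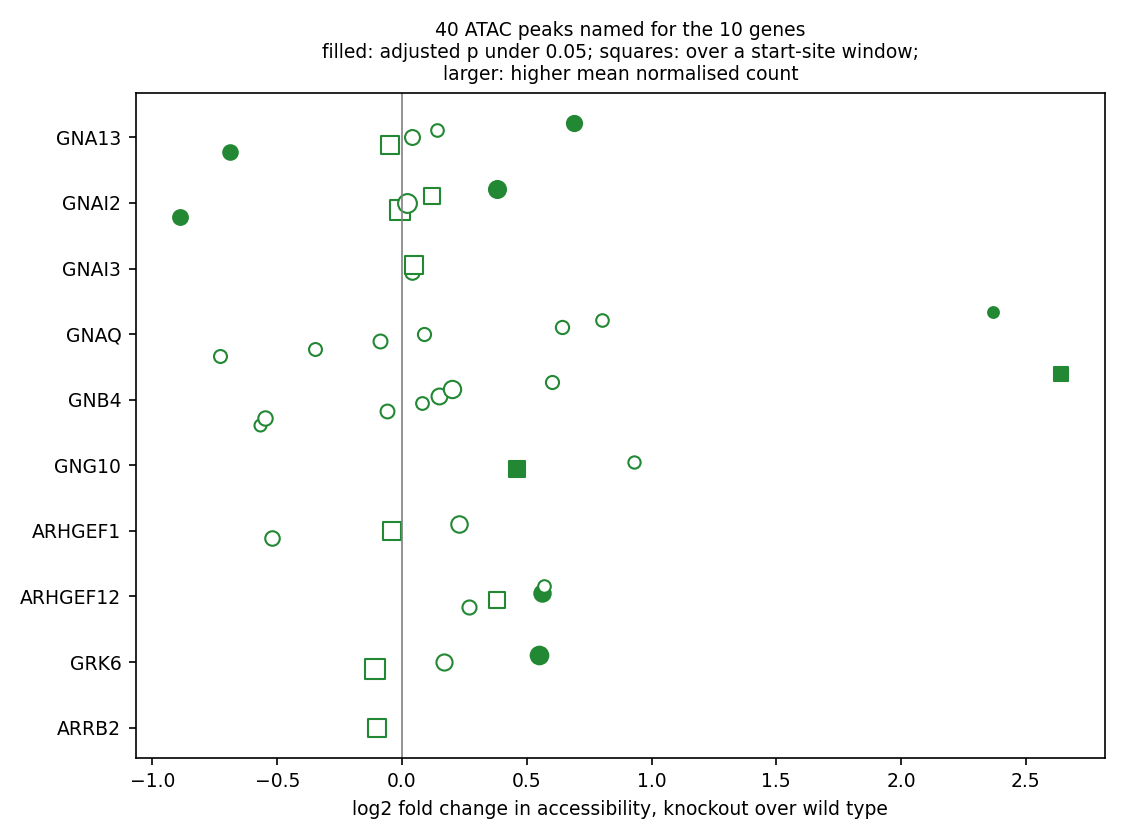
Log2 fold change in accessibility (x axis, knockout over wild type) of each of the 40 peaks by gene, with filled symbols for an adjusted p under 0.05, squares for peaks over a start-site window and larger symbols for higher means. Values run from -0.89 at GNAI2 to 2.64 at GNB4, and each of GNA13 and GNAI2 has 1 higher and 1 lower peak.

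Genes and peaks within 500 kb of a member are described next, and whether a change extended to them was not tested. Over all tested genes 9.89% were higher and 9.28% lower. Over all peaks 20.4% were higher and 15.5% lower. Around GNB4, 2 of 16 tested genes were higher and 0 lower, with a median log2 fold change of 0.21. These were MFN1, a mitochondrial fusion gene next to it, at 0.93 (adjusted p 1.99e-07), and PIK3CA, a PI3-kinase gene, at 0.60 (adjusted p 0.0254) (DESeq2 Wald test) according to the authors' deposited table. Of 38 other peaks there, 7 were higher and 7 lower, and the median was -0.08.

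Around ARHGEF12, 11 of 26 other peaks were higher and 1 lower, and their median was 0.58, close to the 0.56 of its own changed peak. The median within 1 Mb was 0.10 over 93 peaks, and 1 other gene was tested within 500 kb. Around GNG10, 0 of 6 tested genes passed, and 3 of 35 peaks were higher and 12 lower. Around the genes that fell, 2 of 32 neighbours of ARHGEF1 were higher and 8 lower, 0 of 25 neighbours of GRK6 were higher and 5 lower, and 0 of 27 neighbours of ARRB2 were higher and 5 lower. Around GNA13 and GNAI2, which did not pass the test, 0 of 13 and 0 of 27 neighbours were higher, 3 and 2 were lower, and the medians were -0.51 and -0.36. Those around ARHGEF1, GRK6 and ARRB2 were -0.32, -0.41 and -0.36. Whether members and neighbours moved together was not tested.

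The rest of the pathway was counted in 10 lists of 86 genes, 71 of them in the RNA table and 59 tested. Apart from the members, 4 of 50 tested genes were higher and 8 lower, with a median log2 fold change of -0.26, against 0.02 over all tested genes. Of all tested genes 9.89% were higher and 9.28% lower, and of those with a mean of at least 100, 26.2% passed in either direction, so the count is near the background. The counts per list below are of few genes and are read against the same shares. Among alpha subunits, 1 of 8 was higher and 0 lower. That was GNAL, a relative of the stimulatory subunit, with 181 and 131 normalised reads in wild type and 615 and 544 in knockout cells, a log2 fold change of 1.88 (adjusted p 1.97e-08) according to the authors' deposited table. GNAS, which encodes the stimulatory subunit itself, had 0.22 (adjusted p 0.336) according to the authors' deposited table.

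Among gamma subunits, 2 of 5 were higher and 0 lower, and beside GNG10 this was GNG2 at 0.65 (adjusted p 0.0265) according to the authors' deposited table. The call of GNG2 ended at a threshold of 0.01 and after centring on the chromosome median. Of the chaperones and dissociation inhibitors of alpha subunits, 0 of 6 were higher and 2 lower. RIC8B, a chaperone of stimulatory alpha subunits, had 113 and 141 normalised reads in wild type and 13.1 and 14.6 in the knockout, a log2 fold change of -3.19 (SE of 0.62, adjusted p 6.46e-06) according to the authors' deposited table. Its adjusted p was 0.0597 with scaled statistics. GPSM3, which binds inhibitory alpha subunits, had -0.84 (adjusted p 0.00193) according to the authors' deposited table.

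Of phospholipase C beta and inositol trisphosphate receptor genes, 2 of 5 were higher and 0 lower. ITPR2, a calcium release channel gene, went from 1678 and 1910 to 5161 and 5255 normalised reads, and its log2 fold change was 1.54 (SE 0.16, adjusted p 1.90e-18) according to the authors' deposited table. PLCB2, a phospholipase C beta gene, had 1.28 (adjusted p 0.00820) according to the authors' deposited table.

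Adenylyl cyclase and protein kinase A genes had 0 of 9 higher and 3 lower. ADCY3 and ADCY7, both cyclases, had -0.83 (adjusted p 2.07e-05) and -1.15 (adjusted p 3.62e-04), and PRKACB, a catalytic kinase subunit gene, had -0.93 (adjusted p 5.35e-05) (DESeq2 Wald test) according to the authors' deposited table. Of the targets of the beta-gamma pair, 0 of 4 were higher and 1 lower, which was PREX1, a Rac exchange factor gene, at -0.75 (adjusted p 0.00279) according to the authors' deposited table. Receptor kinases and arrestins had 0 of 6 higher and 2 lower, with a median of -0.42 and all 6 below 0. The 2 lower genes were the members GRK6 and ARRB2, described above, and no other gene of this list passed. GRK2 and GRK3, the kinases recruited by the beta-gamma pair, had -0.38 (adjusted p 0.0816) and -0.41 (adjusted p 0.125) according to the authors' deposited table. The receptors that signal through G13 in germinal centre B cells, S1PR2 and P2RY8, had -0.03 and -0.31 according to the authors' deposited table, and neither passed. Of the 12 calls outside the members, those of GNAL and ITPR2 passed both the 1.5-fold test and scaled statistics, and RIC8B passed the former.

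**Figure D5:**
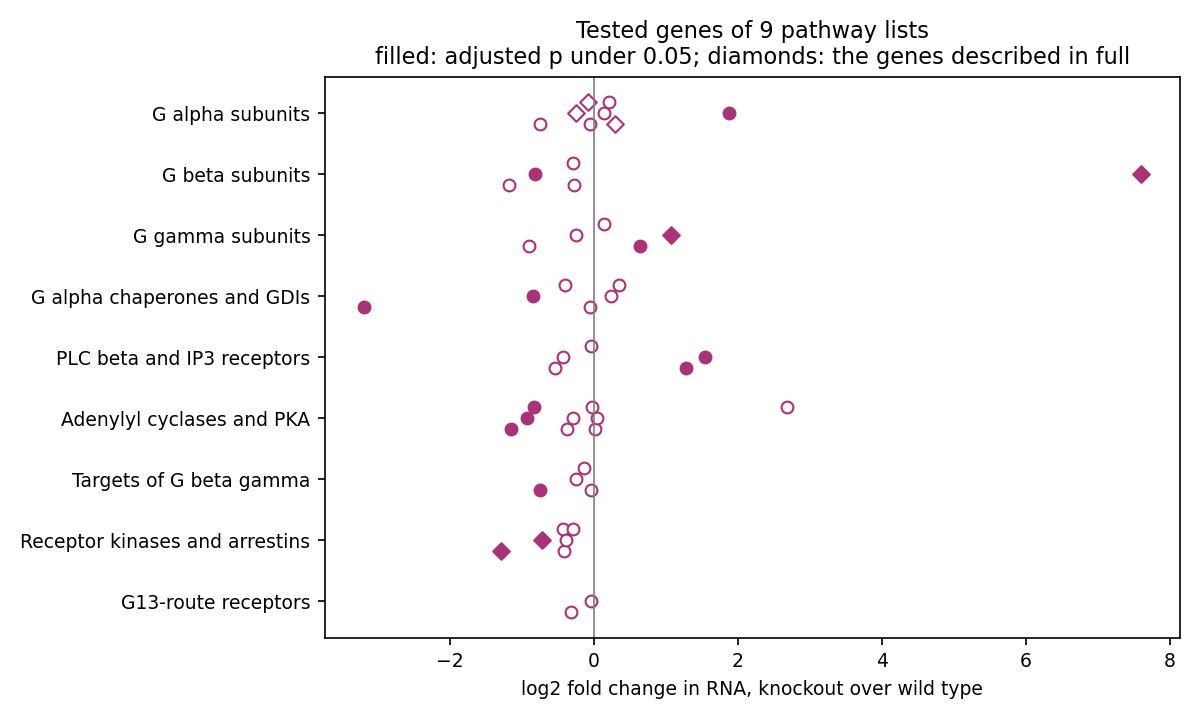
Log2 fold change in RNA (x axis, knockout over wild type) of each tested gene in 9 of the 10 pathway lists (rows), filled for an adjusted p under 0.05 and with diamonds for the members. GNB4 lies furthest right at 7.60 and RIC8B furthest left at -3.19, and receptor kinases and arrestins all lie below 0.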

How the data were processed

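The data are RNA-seq and ATAC-seq of Raji cells, each with 2 wild-type and 2 knockout libraries. The submitters' processing notes name Trim Galore, Trimmomatic, cutadapt, STAR, featureCounts, Bowtie2, HOMER and DESeq2 with GRCh38 or hg38. For versions, settings, the peak caller and the use of strand in counting, the answer is: not given in the sources used here. The authors' deposited tables hold DESeq2 results per gene and per peak. In the deposited tables the signal is the mean over 4 libraries of counts divided by size factors. The authors also give the log2 fold change with its standard error on the log2 scale. The deposited Wald score is the fold change divided by its SE, and its two-sided p-value is given raw and Benjamini-Hochberg adjusted. The other unit of the deposited ATAC table is the distance to the nearest start site in bp.

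The tables hold no column per library, so the planned edgeR quasi-likelihood test was not run, and the authors' DESeq2 Wald test at an adjusted p under 0.05 over all features was used. Genes with a mean up to 4.30 carry no adjusted p. Positive fold changes were taken as higher in the knockout. That coding rests on a single ATAC peak of the targeted interval, at fitted counts of 622 and 0.186, and was carried over to the RNA. If it were the other way in either assay, every direction of that assay would turn.

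Reads per RNA library were recovered from the deposited means. A mean is a sum of whole reads, each worth 1 step per library, and the 4 steps were read from the genes with the lowest means. Combinations of whole reads that gave a gene's mean to its printed digits were compared with the deposited fold change through the negative binomial likelihood. Exactly 1 combination was left for each of 10 members. For GNAQ, with 0 reads in wild type, it could not be compared with the fold change. For the other members it lay within 8.8e-06 log2 units. GNAQ, GNB4, GNG10, ARHGEF12 and ARRB2 had no other combination to reject. In the remaining members the nearest rejected combination missed by 0.0037 or more. On reads drawn by computer for 200 genes, 200 were recovered without error. Those genes had a limited range of means and SEs, and reads in both genotypes. Among the members, GNA13, GNAI2 and GRK6 had higher means, GNB4 a larger SE and GNAQ too few reads. The check did not cover these members. Which library is replicate 1 is not known, so libraries are called deeper and shallower. The RNA size factors were 1.303 and 0.717 in wild type and 1.065 and 1.030 in the knockout. ATAC depth per library is unknown. Reads were not recovered for genes with a mean above 8000.

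Fitted counts per genotype come from the mean and the fold change. Positions and exon lengths come from GENCODE release 44, where all 25377 gene IDs were found. An exon length joins all annotated exons of a gene, whichever transcripts the cells make. The 22 repeated pseudoautosomal entries were left out of list counts. Promoter windows come from RefSeq (GRCh38.p14). Intervals are 95% (1.96 SE). Python 3.11.15, numpy 2.4.6, scipy 1.17.1 and pandas 2.3.3 were used. The members and the gene lists were chosen with earlier results of these data known. All members were named, with up to 4 other genes per pathway list by lowest adjusted p (at most 2 in a list without calls). Among peaks, all those over promoters were named, with the smallest adjusted p of each member in each direction. Other peaks, neighbouring genes, GNAS and GNB1 were chosen after their values were seen. Alternatives were a test against a 1.5-fold change, Wald scores scaled by their spread over all features (1.70 for genes, 2.46 for peaks), a threshold of 0.01, a minimum mean of 100, 2 centrings and another peak assignment. Of the lists, 1 pathway list and 1 cell marker are not reported here.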

Additional observations from a re-analysis of the deposited data

How the results depend on the processing

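Of the 6 members past the threshold in RNA, 2 passed a test against a 1.5-fold change and 2 passed with scaled statistics, GNB4 and ARHGEF12 in both. For the pathway lists, where 18 genes passed, these settings left 5 and 4. For the 40 peaks, where 9 passed, they left 1 and 0. With scaled statistics of the DESeq2 Wald test, 2 of the 40 peaks had an unadjusted p under 0.05, against 17 as deposited. The other settings kept each of these 3 counts within 1.5 times of its value. Signs that turned were all of values short of the threshold. After centring on the chromosome median, GNA13 RNA was at 0.06 and the GNAI2 start-site peak at 0.04. After centring on local peaks, the start-site peaks of GNA13, GNAI2 and ARHGEF1 were at 0.00, 0.01 and 0.09. From recovered reads, leaving out each library in turn gave log2 ratios of 0.65 to 1.73 for GNG10, -0.91 to -0.49 for GRK6, -1.54 to -1.0 for ARRB2, -1.0 to -0.71 for ARHGEF1, 1.40 to 1.44 for ARHGEF12, 6.93 to 7.95 for GNB4 and -0.26 to 0.14 for GNA13. These have no test and were chosen after seeing the data. The GNB4 range leaves out the setting with 0 wild-type reads. Leave-one-out counts of calls were not run, because reads were recovered for named genes only. No paired analysis was possible because the tables carry no replicate numbers.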
